A study of Mus musculus with 12 samples.

Results

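Fibroblasts and immune cells of the mammary gland were compared between mice with intact ovaries and mice whose ovarian follicles had been depleted by 4-vinylcyclohexene diepoxide (VCD), an ovotoxic compound. The Intact library was set against VCD_Vehicle and VCD_Vehicle_NormEnv, the 2 VCD libraries that received neither hormone nor polybrominated diphenyl ethers (PBDEs, flame retardants). All mice were C57BL/6J at 43 weeks of age, and single cells of the dissociated gland were sequenced in droplets from the 3′ end of their RNA. VCD was injected at 160 mg/kg per day for 15 days from 9 weeks of age, with sesame oil as the vehicle for VCD and for the hormones. VCD_Vehicle_NormEnv was a further vehicle group that may have met PBDEs from the plastic of its cages, while VCD_Vehicle had no such exposure. Whether Intact mice received sesame oil or the matched control food is not stated separately, and the sources used here give no number of mice per library. With 1 library per group, a difference between libraries has no replicate check, and no test was made.

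VCD destroys the primordial and primary follicles of the ovary and leaves the other ovarian tissue in place, so that cyclic estradiol and progesterone fail gradually, as in the menopausal transition. In the mammary gland both hormones act through receptors in part of the luminal epithelium and of the stroma. Stromal fibroblasts build the collagen matrix around the ducts and send growth factors to the epithelium, and resident macrophages, T cells and innate lymphoid cells lie between them. The comparison addressed which genes of these stromal cells differ between Intact and the vehicle groups. Exposure to VCD and the loss of ovarian follicles came together in this design and cannot be told apart. The sample labels give no cycle stage or hormone level for Intact.

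Cells were chosen by their own UMIs (unique molecular identifiers, which count RNA molecules). Barcodes passed with 500 or more genes, 1000 or more UMIs and no more than 5% of UMIs from mitochondrial genes, which left 3458 of 4498 in Intact, 3820 of 4642 in VCD_Vehicle and 3637 of 4543 in VCD_Vehicle_NormEnv. Fibroblasts held at least 20 UMIs of Col1a1, Col1a2 and Col3a1 together and none of Ptprc, Pecam1 or Epcam. This gave 2690 fibroblasts in Intact, 2936 in VCD_Vehicle and 2881 in VCD_Vehicle_NormEnv. Immune cells held at least 1 UMI of Ptprc, which encodes the leukocyte antigen CD45, and none of Pdgfra or Epcam, and numbered 335, 416 and 293 in the same order. These 9551 cells were part of 39401 chosen in the same way from all 12 libraries of the series. Near the collagen limit, 35, 51 and 20 cells held 20 to 24 collagen UMIs and 36, 45 and 24 cells held 15 to 19. All 10 fibroblast markers were detected in the fibroblasts of each library, and all 10 immune markers in the immune cells. Detection does not tell the compartments apart. All immune markers but Ptprc were also detected in fibroblasts, and all fibroblast markers but Pdgfra in immune cells. The absence of Ptprc and Pdgfra follows from the choice of cells.

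Some features of the libraries bear on every comparison. Intact shared 110 cell barcodes with VCD_Vehicle, 1 with VCD_Vehicle_NormEnv and between 95 and 121 with VCD_E2, VCD_E2_P4 and VCD_Low_PBDE. Among the cells compared, 55 Intact fibroblasts and 13 Intact immune cells carried a barcode found in another library. Without all shared barcodes, the genes kept (defined below) numbered 31 higher and 12 lower in fibroblasts and 61 higher and 70 lower in immune cells. VCD_Vehicle_NormEnv stood apart in transcripts of other cells. Haemoglobin transcripts made up 587 CPM (UMIs of the genes per 1000000 UMIs of the summed cells) in its fibroblasts, against 49.6 in Intact and 72.7 in VCD_Vehicle. Transcripts of 10 skeletal muscle genes summed to 2228 CPM in its immune cells, against 10.4 in Intact and 16.6 in VCD_Vehicle, and Acta1, for skeletal muscle actin, was at 0 in both of these. The part of these cells in the results was not tested.

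Log2 ratios were taken on log2(CPM + 1) of the UMIs summed over the cells of a library. A gene with a mean of at least 10 CPM was kept as different when Intact lay above both vehicle libraries or below both, the smaller of the 2 ratios was at least 1.5-fold and larger than the ratio between the vehicle libraries, and the 95% counting interval of Intact overlapped neither of theirs. In fibroblasts 7701 genes were tested. Of these, 30 (0.39%) were kept as higher in Intact and 12 (0.156%) as lower, while 160 (2.08%) were at least 1.5-fold apart between the 2 vehicle libraries. Among 7613 genes in immune cells, 54 (0.709%) were kept as higher and 62 (0.814%) as lower, beside 724 (9.51%) at least 1.5-fold apart between the vehicle libraries. The count between the vehicle libraries uses 1 pair and the fold alone, so it is not on the same footing as the kept counts. Against VCD_Vehicle_NormEnv alone, fibroblasts gave 153 higher and 94 lower genes, and against VCD_Vehicle alone 64 and 29. Just outside the 1.5-fold limit in fibroblasts lay Cyp7b1, left out with a log2 ratio of 0.58. In immune cells the limit lay between Apoe, kept with 0.59, and Maged1, left out with -0.58.

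**Figure D1:**
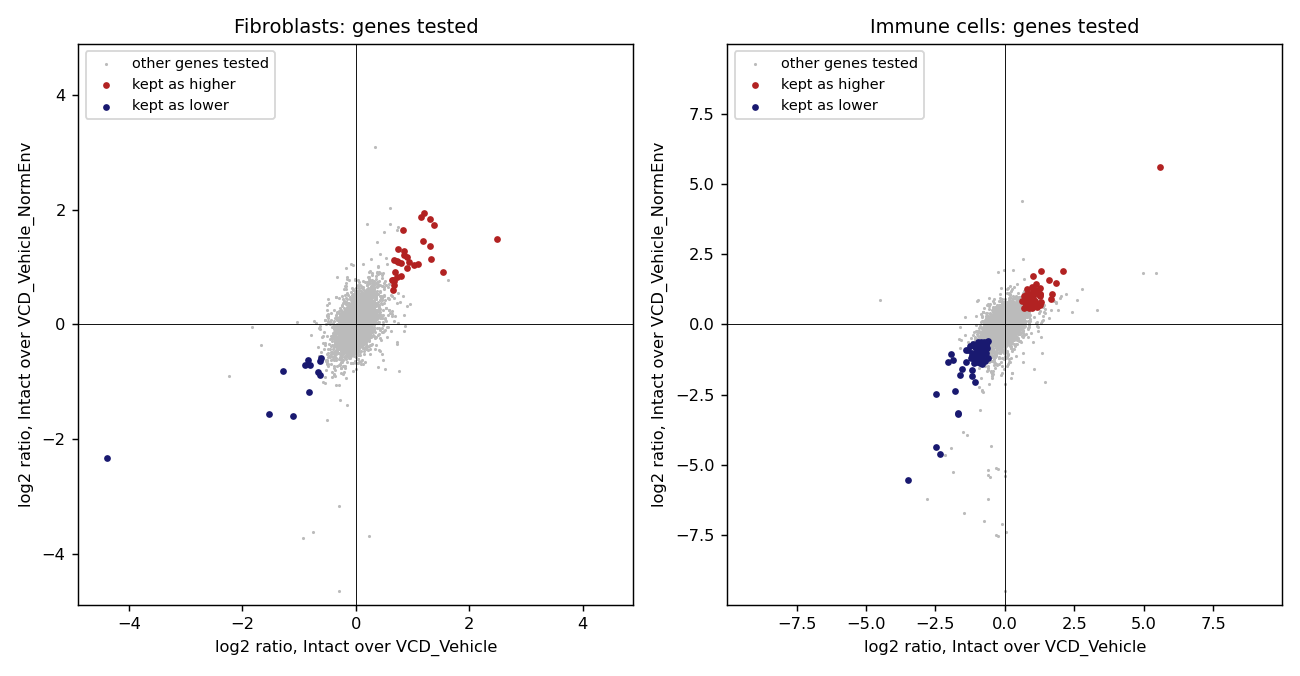
Log2 ratio of Intact over VCD_Vehicle (horizontal) and over VCD_Vehicle_NormEnv (vertical) for each gene tested in fibroblasts (left) and immune cells (right), with each gene a point, kept genes in red (higher) or blue (lower) and other genes in grey. The 30 higher and 12 lower genes of fibroblasts and the 54 and 62 of immune cells lie in the upper right and lower left.

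Among the 30 genes kept as higher in Intact fibroblasts were Pgr, Ctla2a and Postn. Pgr encodes the progesterone receptor and is a classical target of the estrogen receptor. It stood at 22.4 CPM in Intact (992 UMIs, 95% interval 21.0 to 23.8), 12.5 in VCD_Vehicle and 10.2 in VCD_Vehicle_NormEnv. Intact was thus 1.79 and 2.20 times the vehicle libraries, with no overlap of the intervals, and its 10 highest cells held 21.0% of the UMIs. Ctla2a, which encodes an inhibitor of cysteine proteases and is induced by progesterone in the uterus, stood at 31.2 CPM in Intact, 4.7 in VCD_Vehicle and 10.4 in VCD_Vehicle_NormEnv, but 64.3% of its UMIs in Intact came from 10 cells. Its smaller log2 ratio, 1.49, was the largest among the 30 higher genes. The mean of Ctla2a in immune cells was 302 CPM, and the part of RNA from other cells was not tested. Postn encodes periostin, a matrix protein that binds collagen and integrins, and was the most abundant gene kept as higher. It stood at 737 CPM in Intact, 445 in VCD_Vehicle and 342 in VCD_Vehicle_NormEnv.

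The promoter windows of these genes are shown because Ctla2a and Pgr are the kept members of the estrogen receptor target list and Postn is the most abundant kept gene. Each runs from 250 bases before the transcription start to 50 after it, 5′ to 3′ on the gene's strand, from RefSeq on GRCm38.p6, with the letters of a searched motif in capitals.
Ctla2a, chr13:60936517-60936816 (- strand): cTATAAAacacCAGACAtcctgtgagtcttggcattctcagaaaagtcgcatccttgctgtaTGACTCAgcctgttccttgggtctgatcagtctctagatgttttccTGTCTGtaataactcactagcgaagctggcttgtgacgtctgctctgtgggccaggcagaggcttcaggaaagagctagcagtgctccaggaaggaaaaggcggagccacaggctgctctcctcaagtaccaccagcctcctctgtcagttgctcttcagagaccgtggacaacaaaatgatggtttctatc
Pgr, chr9:8899583-8899882 (+ strand): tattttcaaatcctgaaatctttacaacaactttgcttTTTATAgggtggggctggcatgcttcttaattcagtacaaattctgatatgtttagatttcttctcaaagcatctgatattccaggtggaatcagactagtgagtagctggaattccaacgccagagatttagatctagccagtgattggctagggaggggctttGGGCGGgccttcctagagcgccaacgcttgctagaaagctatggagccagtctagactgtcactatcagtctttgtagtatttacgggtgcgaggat
Postn, chr3:54360857-54361156 (+ strand): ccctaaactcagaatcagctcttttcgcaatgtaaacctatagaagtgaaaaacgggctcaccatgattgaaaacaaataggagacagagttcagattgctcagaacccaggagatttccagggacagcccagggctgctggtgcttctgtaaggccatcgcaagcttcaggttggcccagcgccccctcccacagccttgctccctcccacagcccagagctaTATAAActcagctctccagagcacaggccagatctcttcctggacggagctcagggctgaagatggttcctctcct
The motifs below were searched on both strands, and capitals mark matches to the AP-1 site (TGANTCA), the TATA box (TATAAA), the SMAD site (CAGACA) and the SP1 box (GGGCGG). Ctla2a held TGACTCA from position -188, counted from the start. The Postn window held TATAAA from position -26. Pgr held GGGCGG from position -47. No window of the 20 genes kept as higher with a RefSeq entry held the full estrogen response element (GGTCANNNTGACC), which 1 of 5970 tested genes with a window did. The core letters of a nuclear receptor site (AGGTCA) was in the window of 1 of the 20 genes, in another RefSeq window of Postn than the one shown, against 14.3% of tested genes. TATA box letters were in 3 of 20 against 8.66%, AP-1 letters in 2 of 20 against 6.23% and SP1 box letters in 15 of 20 against 73.1%. The core letters of a progesterone or glucocorticoid receptor site (AGAACA) was in 2 of 20 (in Ctla2a in a window not shown) against 13.4%, the TEAD site (GGAATG) in 2 of 20 against 13.9% and the SMAD site in 3 of 20 against 17.3%. A match is a run of letters and not evidence of binding, and its absence holds only for these windows.

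**Figure D2:**
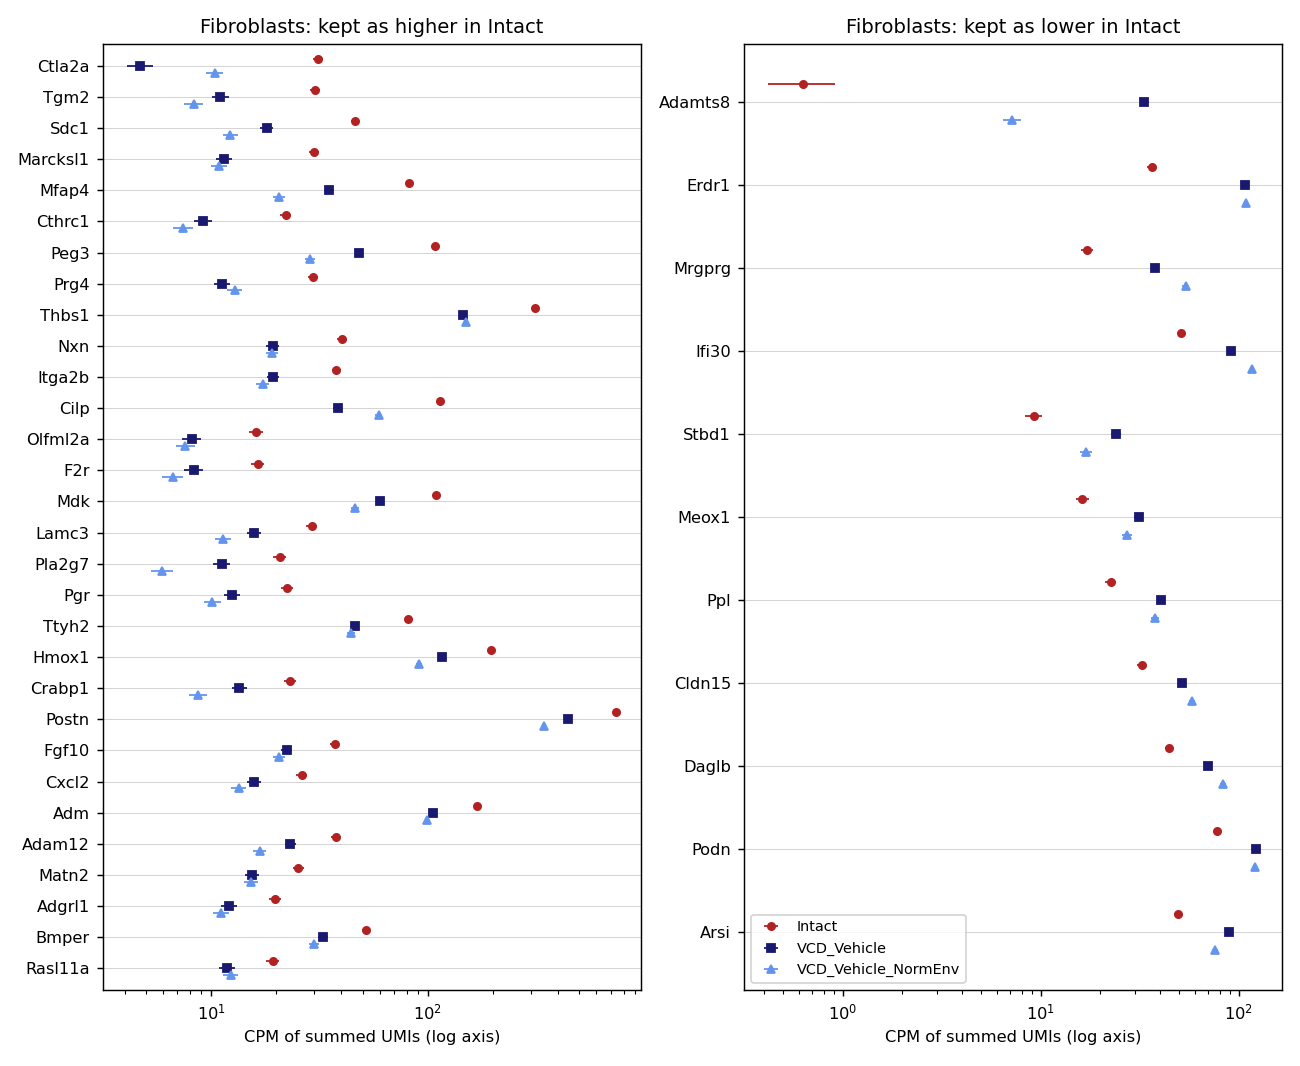
CPM of summed UMIs on a log axis for the 30 genes kept as higher (left) and 11 of the 12 kept as lower (right) in Intact fibroblasts, ordered by the smaller log2 ratio. Points are the 3 libraries (circle, Intact; square, VCD_Vehicle; triangle, VCD_Vehicle_NormEnv) and bars the exact Poisson 95% intervals, with Intact the highest in the left panel (Postn at 737 CPM) and the lowest in the right (Erdr1 at 36.2 CPM).

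Of 7 steroid receptor genes tested, Pgr was the 1 kept. Esr1, which encodes estrogen receptor alpha, stood at 59.2 CPM in Intact, 61.6 in VCD_Vehicle and 68.9 in VCD_Vehicle_NormEnv. Its level in Intact was thus 0.96 and 0.86 times that of the vehicle libraries. Nr3c1, for the glucocorticoid receptor, stood at 131 CPM in Intact, 139 in VCD_Vehicle and 149 in VCD_Vehicle_NormEnv. Esr2, for estrogen receptor beta, had no UMI in Intact fibroblasts, which allows up to 0.0677 CPM. Of 18 estrogen receptor targets tested, 2 were kept as higher, Pgr and Ctla2a, and none as lower, beside 0.39% and 0.156% of all genes tested, and the median of the smaller log2 ratio was 0.01 against 0.00 over all genes tested. The list, which holds Ctla2a and Ggt5, was written with earlier results of these data known, so its count is not independent of them. In all, 9 targets lay above both vehicle libraries (50.0%) and 6 below both (33.3%), beside 33.9% and 32.6% of all genes tested. Cxcl12, for a chemokine of stromal cells, stood at 468 CPM in Intact, 366 in VCD_Vehicle and 331 in VCD_Vehicle_NormEnv. Ggt5 stood at 148 CPM against 106 and 92.5. Igf1, for the growth factor that mediates much of the growth hormone response in the gland, stood at 199 CPM against 184 and 163. Lower in Intact than in both were C3, for a complement component, at 1680 CPM against 1999 and 2588, Ccnd1, for cyclin D1, at 11.9 against 13.95 and 20.3, and Nrip1, for a nuclear receptor corepressor, at 85.6 against 108 and 93.4. None of the 17 progesterone and glucocorticoid targets tested in fibroblasts was kept, while 5 lay above both vehicle libraries (29.4%) and 9 below both (52.9%, or 64.7% under TMM scaling, beside 37.5% of all genes tested under that scaling).

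Of 27 elastic fibre and matricellular genes tested, 3 were kept as higher (Mfap4, Thbs1 and Postn) and none as lower, beside 0.39% and 0.156% of all genes tested in fibroblasts. Of the 27, 12 lay above both vehicle libraries (11 under TMM scaling) and 7 below both, beside 33.9% and 32.6% of all genes tested. The median smaller log2 ratio of the list was 0.00, as over all genes tested. Thbs1, for thrombospondin 1, which activates latent TGF-beta and restrains vessel growth, stood at 311 CPM in Intact, 146 in VCD_Vehicle and 149.9 in VCD_Vehicle_NormEnv. The vehicle libraries were nearly equal for this gene and Intact was 2.13 and 2.08 times their levels. Mfap4, for a microfibril protein, stood at 81.9 CPM in Intact, 35.1 in VCD_Vehicle and 20.6 in VCD_Vehicle_NormEnv. Sdc1, for the heparan sulfate proteoglycan syndecan 1, stood at 46.3 CPM in Intact, 18.1 in VCD_Vehicle and 12.3 in VCD_Vehicle_NormEnv. It also marks plasma cells, whose gene Jchain was at 6.97 CPM in Intact fibroblasts, 5.78 in VCD_Vehicle and 102 in VCD_Vehicle_NormEnv. The next 3 genes, like Sdc1, belong to none of the matrix lists. Cthrc1, for a secreted collagen triple helix repeat protein of remodelling tissue, was at 22.1 CPM against 9.2 and 7.4. Cilp, for a cartilage intermediate layer protein, was at 114 CPM against 38.4 and 59.6. Itga2b, for an integrin subunit best known from platelets, was at 37.9 CPM against 19.3 and 17.3. The basement membrane list gave 1 gene in each direction of 15 tested. The higher one, Lamc3, for a laminin gamma chain, was at 29.1 CPM in Intact against 15.7 and 11.3.

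Mdk, for the heparin-binding growth factor midkine, stood at 109 CPM in Intact, 60.0 in VCD_Vehicle and 46.3 in VCD_Vehicle_NormEnv. Peg3, an imprinted gene expressed from the paternal allele, stood at 108 CPM against 48.0 and 28.8. Both belong to the list written here as imprinted growth regulators, although Mdk is not established as an imprinted gene. Of that list 2 of 11 tested were kept as higher, beside 0.39% of all genes tested, and only Peg3 of these is imprinted. The list was evenly split, with 5 genes above both vehicle libraries and 5 below both (4 and 5 under TMM or median-of-ratios scaling) and a median log2 ratio of 0.02 to the mean of the vehicle libraries. Fgf10, for a ligand that fibroblasts send to epithelial FGFR2 during branching, stood at 37.3 CPM in Intact, 22.3 in VCD_Vehicle and 20.6 in VCD_Vehicle_NormEnv, and was the 1 gene kept among 30 growth factor signals of the stroma. Hmox1, for the haem-degrading enzyme haem oxygenase 1, was at 196 CPM against 117 and 91.0, and Cxcl2, for a neutrophil chemokine, was at 26.2 CPM against 15.8 and 13.4, with 50.3% of its Intact UMIs in 10 cells. Cxcl2 was over 2 times as abundant in immune cells as in fibroblasts, as were Hmox1, Ctla2a, Tgm2, Marcksl1, F2r and Pla2g7. The mean in immune cells was 302 CPM for Ctla2a and 273 CPM for Marcksl1. The part of RNA from other cells in the values of all these genes was not tested. Nxn, Olfml2a and Ttyh2, which are in none of the lists, were at 40.1, 16.1 and 80.7 CPM in Intact and were 2.09, 1.98 and 1.75 times VCD_Vehicle.

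Of 9 genes written as markers of Postn- and Tnc-expressing fibroblasts, 4 were kept as higher (Postn, Mfap4, Mdk and Thbs1) and none as lower, beside 0.39% and 0.156% of all genes tested, with a median smaller log2 ratio of 0.43 against 0.00 over all genes tested. Of the 9, 6 lay above both vehicle libraries (5 under TMM scaling) and 2 below both, beside 33.9% and 32.6% of all genes tested. Between the vehicle libraries 3 were at least 1.5-fold apart, beside 2.08% of all genes tested. Postn, Mfap4 and Thbs1 were also counted in the elastic fibre and matricellular list, so these 2 counts are not separate. Tnc itself, for tenascin C, lay below both vehicle libraries, at 12.8 CPM against 43.0 and 16.8. Scg3 and Penk were not kept either, with Scg3 at 184 CPM in Intact between 196 and 87.9 and Penk at 102 against 101 and 82.1. None of the 11 Dpp4 and Pi16 markers, 8 Fabp4 markers or 9 Gdf10 and F3 markers was kept, which says little at the shares of all genes kept. In the same order, 0, 3 and 3 lay above both vehicle libraries and 4, 4 and 2 below both, beside the 33.9% and 32.6% given above.

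Fewer genes were lower in Intact fibroblasts. Erdr1, whose locus lies in the pseudoautosomal region so that its reads are uncertain between copies, stood at 36.2 CPM in Intact, 107 in VCD_Vehicle and 109 in VCD_Vehicle_NormEnv. It was the largest of the lower differences that did not rest on a few cells, at 0.34 and 0.33 times the vehicle libraries. Mrgprg, for a Mas-related G protein-coupled receptor, stood at 17.1 CPM against 37.9 and 53.8, and nearly all of its RNA was in cells with Dpp4 or Pi16. Stbd1, for a protein that binds glycogen, was at 9.2 CPM against 23.9 and 17.0. Meox1, for a mesenchymal homeobox factor, was at 16.2 CPM against 31.2 and 27.3. Podn, for the leucine-rich proteoglycan podocan, was at 77.6 CPM against 122 and 121. It was the 1 kept gene among 9 small leucine-rich proteoglycans, beside 0.156% of all genes tested kept as lower. Of the 9, 3 lay above both vehicle libraries and 4 below both, beside 33.9% and 32.6% of all genes tested. Arsi, Cldn15, Ppl and Daglb were the others named by the rule, at 49.0, 32.3, 22.5 and 44.5 CPM in Intact. Adamts8, for a metalloproteinase, gave the largest ratio, at 0.63 CPM in Intact against 33.3 and 7.2, but its 10 highest cells held 97.5% of its UMIs in VCD_Vehicle.

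None of 20 collagen chains tested was kept, while 14 lay below both vehicle libraries in Intact and 3 above both (2 under TMM or median-of-ratios scaling). Over all genes tested, 32.6% lay below both and 33.9% above both. Col1a1, for the main chain of collagen I, stood at 3345 CPM in Intact, 4151 in VCD_Vehicle and 4489 in VCD_Vehicle_NormEnv, and Col3a1 at 7584 CPM against 9124 and 9344. Col1a1, Col1a2 and Col3a1 were part of the fibroblast gate. Col6a2 stood at 878 CPM against 1157 and 1179. Of 19 cholesterol synthesis and uptake genes tested, none was kept, 13 lay above both vehicle libraries and 1 below both, with a median log2 ratio of 0.30 to the mean of the vehicle libraries (0.00 over all genes) beside a median of -0.33 between the vehicle libraries. Hmgcs1, for an early enzyme of the pathway, was at 302 CPM in Intact, 200.4 in VCD_Vehicle and 253 in VCD_Vehicle_NormEnv. None of 45 interferon-induced genes, 15 class I MHC genes or 15 clock genes was kept. Of all genes tested, 0.39% were kept as higher and 0.156% as lower, so the absence from lists of this size says little. In the same order, 7, 2 and 10 genes lay above both vehicle libraries and 19, 8 and 4 below both. For clock genes these were 8 and 5 under TMM scaling.

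Sums over fibroblasts depend on their makeup, so cells were gated by markers that the choice of fibroblasts had not used. Cells with at least 3 UMIs of Dpp4 and Pi16, markers of adventitial progenitor-type fibroblasts, made up 46.2% of fibroblasts in Intact (95% interval 44.3 to 48.1), 41.8% in VCD_Vehicle and 55.9% in VCD_Vehicle_NormEnv. Of the other cells, those with at least 5 UMIs of Fabp4, for a fatty acid-binding protein, made up 22.04% of all fibroblasts in Intact, 24.2% in VCD_Vehicle and 16.2% in VCD_Vehicle_NormEnv. Intact lay between the vehicle libraries for both shares. For the Dpp4 and Pi16 gate it did so again at doubled limits (36.9% against 33.9% and 47.3%) and after the 2660, 2909 and 2855 cells deep enough were thinned to 3000 UMIs (31.9% against 28.6% and 42.9%). For the Fabp4 gate Intact was then the highest, at 18.5% against 18.2% and 13.5% with doubled limits and 11.5% against 8.97% and 5.95% after thinning.

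Within the gates most differences had the same direction. The gates divide the same cells whose sums chose the genes, so this agreement follows in part from that choice. Of the 30 genes higher in Intact, 27 were higher in each of the 3 gates (Dpp4 and Pi16, Fabp4, and the remaining cells), and 22 were at least 1.5-fold higher in 2 or more gates. Of the 12 lower genes, 10 were lower in each gate. Pgr lay almost wholly in the Dpp4 and Pi16 gate, at 40.2 CPM in Intact, 23.7 in VCD_Vehicle and 16.2 in VCD_Vehicle_NormEnv, and stayed at or under 2.3 CPM in the others. Ctla2a was likewise at 54.0 CPM in that gate against 7.4 and 15.6, and at 4.5 CPM or less outside it. Postn differed most among Fabp4-gated cells, at 1109 CPM in Intact against 435 and 263, and least in the Dpp4 and Pi16 gate, at 609 CPM against 535 and 398. Hmox1 differed most in the Dpp4 and Pi16 gate, at 212 CPM against 91.7 and 75.4, and less in the Fabp4 gate, at 209 against 165 and 145, and in the remaining cells, at 146 against 118 and 93.6. Mfap4 and Cilp were higher in the Dpp4 and Pi16 gate, at 111 CPM against 36.9 and 25.2 for Mfap4 and 173 against 50.0 and 77.2 for Cilp. In Fabp4-gated cells both were lower in Intact, at 6.6 CPM against 9.5 and 8.3 for Mfap4 and 8.3 against 17.2 and 16.3 for Cilp. Erdr1 was lower by about the same ratio in all 3 gates, with 33.7 CPM against 99.7 and 102 in the Dpp4 and Pi16 gate.

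**Figure D3:**
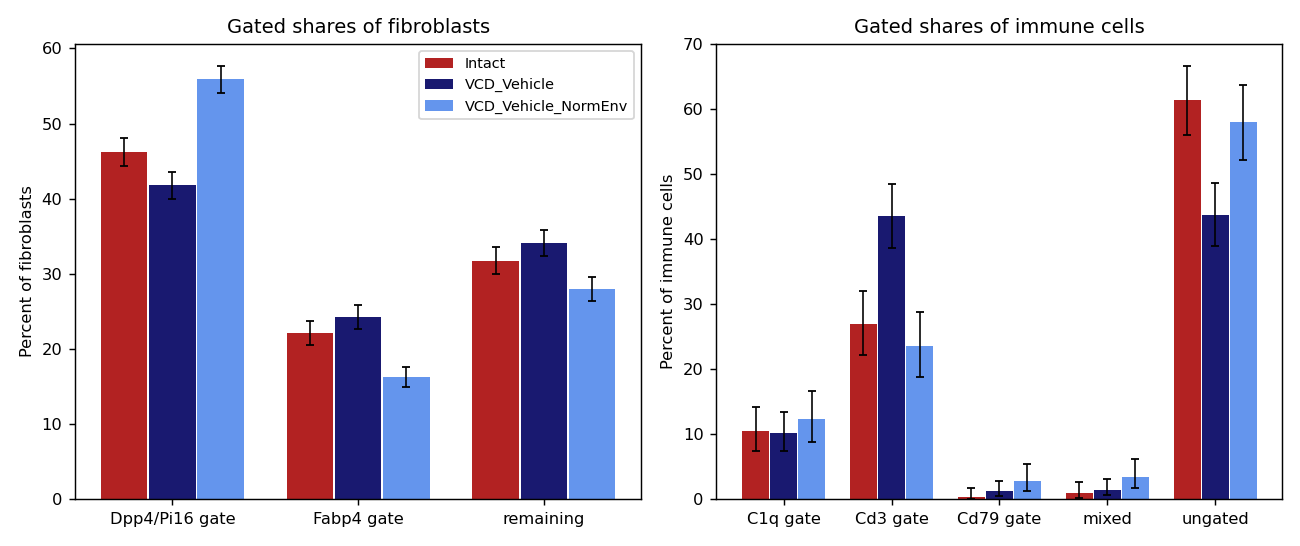
Percent of fibroblasts (left) and immune cells (right) in each gate, as bars for Intact, VCD_Vehicle and VCD_Vehicle_NormEnv with exact binomial 95% intervals, which cover counting error only. Intact lies between the 2 vehicle libraries for the Dpp4/Pi16, Fabp4, Cd3 and C1q gates, and the Cd3 gate of VCD_Vehicle (43.5%) stands above the others.

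Further VCD libraries give the levels of the same genes with hormone. VCD_E2 received estradiol (E2) at 1 µg per animal per day for 1 week, VCD_E2_P4 also progesterone (P4) at 1 mg per animal per day, and VCD_E2_ICI the same E2 with 1 injection of 5 mg of ICI, which degrades the estrogen receptor. These libraries and Intact are set against the same vehicle libraries, so their values are given side by side only. Postn in fibroblasts, at 737 CPM in Intact, stood at 678 in VCD_E2, 2037 in VCD_E2_P4 and 520.2 in VCD_E2_ICI. Cthrc1, at 22.1 CPM in Intact, stood at 65.1 in VCD_E2, 139.5 in VCD_E2_P4 and 14.5 in VCD_E2_ICI. Ctla2a was at 113 CPM in VCD_E2, 459 in VCD_E2_P4 and 5.9 in VCD_E2_ICI. Intact (31.2) thus lay above the vehicle libraries and below VCD_E2 and VCD_E2_P4. Sdc1 had the same order, with 59.4 CPM in VCD_E2, 112 in VCD_E2_P4 and 17.4 in VCD_E2_ICI. Pgr did not, at 11.0 CPM in VCD_E2, 4.6 in VCD_E2_P4 and 1.5 in VCD_E2_ICI, all below Intact. It was above Intact (22.4) in VCD_Low_E2, which received E2 after low-dose PBDEs, at 35.2 CPM, and below it in VCD_High_PBDE_E2, at 12.4. PBDEs were given for 20 weeks in VCD_Low_E2 and for 1 week in VCD_High_PBDE_E2. In the same 2 libraries Ctla2a was at 53.9 and 11.6 CPM and Sdc1 at 50.9 and 124.9. Ctla2a in VCD_High_PBDE_E2 was thus below Intact. Hmox1 was at 167.5 CPM in VCD_E2, 129 in VCD_E2_P4 and 120.2 in VCD_E2_ICI.

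Against all 9 VCD libraries other than the vehicles, Intact remained the highest for 1 of the 30 higher genes, Hmox1, and the lowest for 3 of the 12 lower genes, Stbd1, Erdr1 and Adamts8. VCD_Low_PBDE and VCD_High_PBDE received no hormone, and differed in the length of PBDE exposure (20 weeks and 1 week) as well as in dose. Against these 2 libraries, Intact was higher for 26 of the 30 genes and lower for 11 of the 12. The same Intact values had chosen these genes, so the agreement follows in part from that choice. The share over all genes tested was not computed. Pgr was at 4.4 CPM in VCD_Low_PBDE and 7.9 in VCD_High_PBDE, Postn at 293 and 312, and Sdc1 at 9.6 and 12.1. With these 2 libraries in the place of the vehicles, 80 genes were kept as higher and 110 as lower, and 21 of the 30 and 4 of the 12 were among them.

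**Figure D4:**
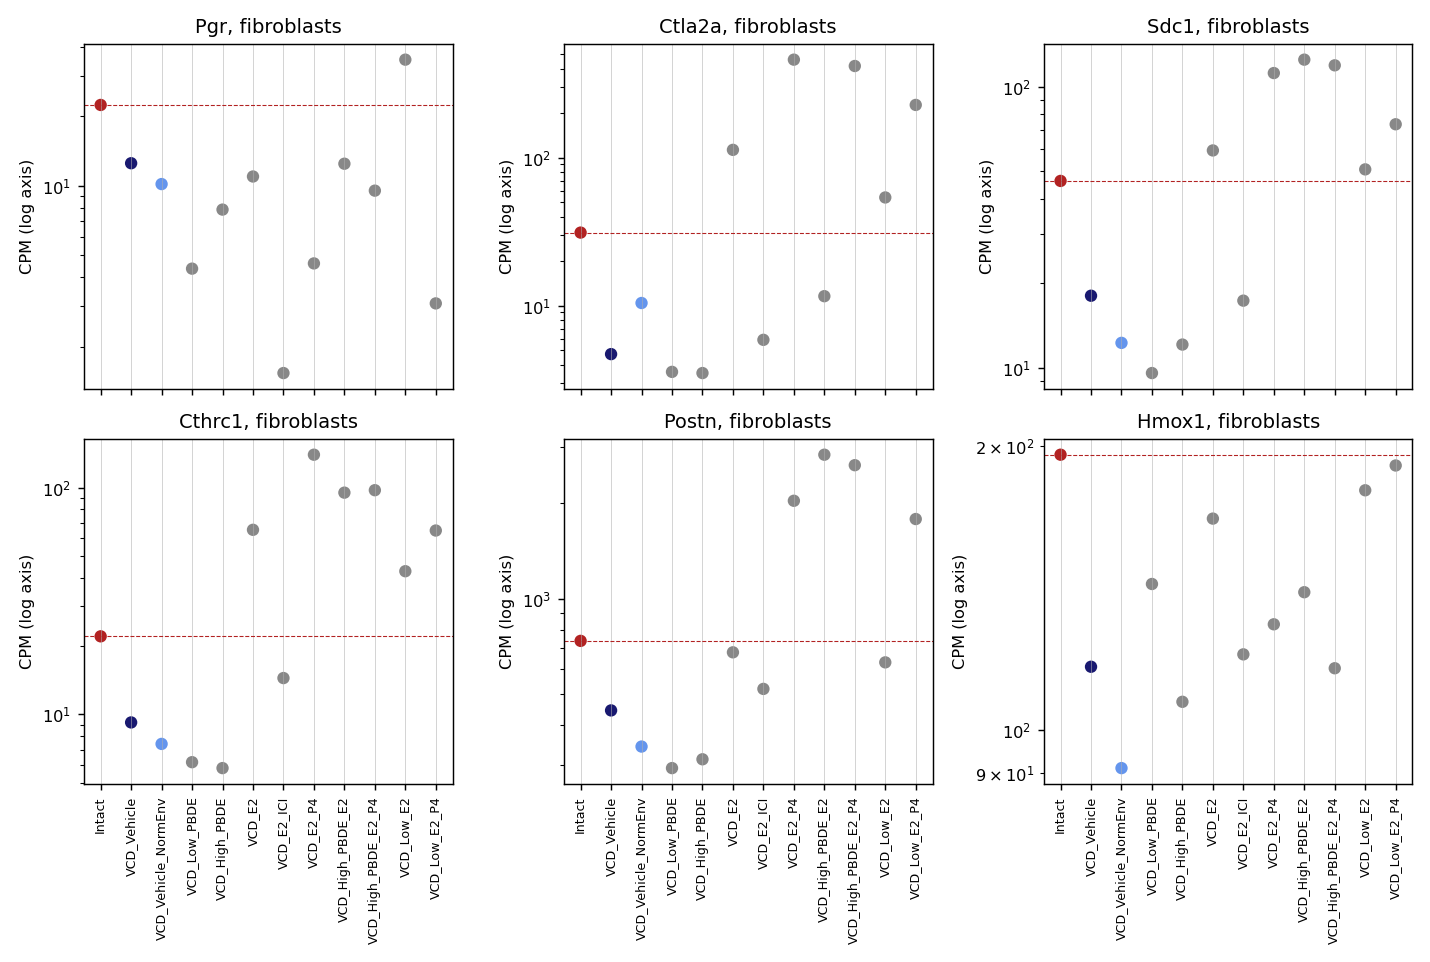
CPM in fibroblasts, on log axes, of Pgr, Ctla2a, Sdc1, Cthrc1, Postn and Hmox1 in each of the 12 libraries, with Intact in red and as a dashed line, the 2 vehicle libraries in dark and light blue and the other VCD libraries in grey. Hmox1 is highest in Intact, and Postn and Cthrc1 are higher in VCD_E2_P4 (2037 and 139.5 CPM) than in Intact (737 and 22.1). The vehicle libraries lie below Intact for all 6 genes by the keep rule. VCD_Low_PBDE and VCD_High_PBDE also do for these 6, as for 26 of the 30 higher genes.

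Immune cells were far fewer, and their sums rested on fewer cells. In 73.3% of the genes tested in them, the 10 highest cells held over 20% of the UMIs in the highest library, against 0.403% of the genes tested in fibroblasts. Of the 54 genes kept as higher, 2 (Spry1 among them) had a mean in immune cells under 0.5 times that in fibroblasts, and the other 52 had over 20% of UMIs in 10 cells. Of the 62 genes kept as lower, 29 were below 0.5 times their fibroblast level, and 32 of the rest had over 20% in 10 cells. These limits left AI413582 alone (24.6 CPM in Intact, 39.0 in VCD_Vehicle and 38.5 in VCD_Vehicle_NormEnv), and further genes are given as members of the lists. Gcg, for glucagon, shows the limit, since all of its 160 UMIs in Intact came from 1 cell and it had none in the vehicle libraries, which allows up to 0.791 and 1.07 CPM there.

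Immune cells were gated in the same way. Cells with at least 2 UMIs of Cd3d, Cd3e and Cd3g, which encode the T cell receptor complex, made up 26.9% in Intact (95% interval 22.2 to 32.0), 43.5% in VCD_Vehicle and 23.5% in VCD_Vehicle_NormEnv. Cells with at least 5 UMIs of C1qa, C1qb and C1qc, the complement genes of resident macrophages, made up 10.4%, 10.1% and 12.3%. The Cd3 and C1q shares of Intact lay between those of the vehicle libraries, but after thinning to 3000 UMIs the Cd3 share of Intact was the lowest, at 23.7% against 41.3% and 25.0%. Cells with at least 3 UMIs of the B cell genes Cd79a, Cd79b and Ms4a1 numbered 1 of 335 in Intact (0.30%, 95% interval 0.0076 to 1.65), 1.20% of cells in VCD_Vehicle and 2.73% in VCD_Vehicle_NormEnv. The cells in none of these gates were the largest class, with 61.5% in Intact (95% interval 56.0 to 66.7), 43.75% in VCD_Vehicle (38.9 to 48.7) and 58.0% in VCD_Vehicle_NormEnv (52.1 to 63.7). Their share was thus highest in Intact, with an interval that overlapped that of VCD_Vehicle_NormEnv but not that of VCD_Vehicle, and it was highest again at doubled limits (63.6% against 45.9% and 58.7%) and after thinning (65.0% against 47.4% and 58.0%).

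Of 14 genes of group 2 innate lymphoid cells (ILC2), which make type 2 cytokines, all were tested, 3 were kept as higher in Intact and 1 as lower, beside 0.709% and 0.814% of all genes tested in immune cells. Of the 14, 13 lay above both vehicle libraries and 1 below both, also under TMM and median-of-ratios scaling. Of all genes tested, 27.3% lay above both and 38.6% below both (33.6% and 32.1% under TMM scaling). The median smaller log2 ratio of the list was 0.54, against 0.00 over all genes. Between the vehicle libraries the median log2 ratio of VCD_Vehicle over VCD_Vehicle_NormEnv was -0.69, larger in size. Of the 14 genes, 8 were at least 1.5-fold apart between them. Il1rl1 (the IL-33 receptor), Kit (the stem cell factor receptor) and Calca (the neuropeptide CGRP) were kept as higher. Il1rl1 stood at 179 CPM in Intact, 74.9 in VCD_Vehicle and 111 in VCD_Vehicle_NormEnv. Il5, for the eosinophil growth factor, was at 225 CPM against 56.9 and 117.5, and Areg, for the EGF receptor ligand amphiregulin, at 317 against 88.6 and 188. Neither was kept, since the vehicle libraries were further apart than Intact was from the nearer one. Il4 was the exception in the list and was kept as lower, at 4.4 CPM against 29.3 and 29.6, from 15 UMIs in 6 Intact cells. Both Il1rl1 and Il4 changed direction against VCD_Low_PBDE and VCD_High_PBDE, with smaller log2 ratios of -0.0039 and 0.92. Within the Cd3 gate Il1rl1 stood at 392 CPM in Intact against 102 and 158, and among ungated cells at 139.7 against 74.3 and 113.

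T cell genes differed in both directions. Of 24 tested, Ctla4, for an inhibitory receptor of activated and regulatory T cells, and Tox, for a nuclear factor of T cell development and exhaustion, were kept as higher and Cd8a as lower, beside 0.709% and 0.814% of all genes tested in immune cells. Of the 24, 8 lay above both vehicle libraries and 8 below both (33.3% each), and 14 were at least 1.5-fold apart between the vehicle libraries. Ctla4 stood at 120 CPM in Intact, 59.8 in VCD_Vehicle and 47.0 in VCD_Vehicle_NormEnv, and within the Cd3 gate at 486 against 131 and 68.7. Its 10 highest cells held 79.5% of its UMIs in Intact. Tnfrsf4 and Il2ra, which encode OX40 and the IL-2 receptor alpha chain and were named after their values were seen, went with it, at 135 CPM against 44.0 and 44.5 for Tnfrsf4 and 118 against 54.6 and 42.7 for Il2ra. Cd8a, for the coreceptor of cytotoxic T cells, was at 21.0 CPM in Intact against 39.3 and 33.1. Gzmk, for a granzyme, was the 1 kept gene of 22 cytotoxic lymphocyte genes, at 11.3 CPM against 23.2 and 20.7, and lost this direction when cells were thinned to 3000 UMIs. Of the 22, 3 lay above both vehicle libraries (13.6%) and 9 below both (40.9%, or 27.3% under TMM scaling), beside 27.3% and 38.6% of all genes tested, of which 0.814% were kept as lower.

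Of 26 cell cycle genes tested in immune cells, 6 were kept as lower in Intact and none as higher, beside 0.814% and 0.709% of all genes tested. Of the 26, 80.8% lay below both vehicle libraries (76.9% under TMM or median-of-ratios scaling), beside 38.6% of all genes tested (32.1% and 30.7%). Mki67, the proliferation marker, stood at 32.9 CPM in Intact, 73.8 in VCD_Vehicle and 53.4 in VCD_Vehicle_NormEnv. Ube2c, for a mitotic ubiquitin-conjugating enzyme, stood at 18.1 CPM against 58.0 and 66.3. Top2a, Ccna2, Ccnb2 and Cenpf were the others, and Cenpf was at 7.4 CPM against 29.8 and 19.2. These genes lay in few cells, since Mki67 had UMIs in 21 of 335 cells in Intact, 45 of 416 in VCD_Vehicle and 27 of 293 in VCD_Vehicle_NormEnv. In the ungated cells the order was different, with Mki67 at 43.7 CPM in Intact between 66.1 and 16.9.

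Of 18 lipid-associated and inflammatory macrophage genes tested, 4 were kept as higher (Spp1, Apoe, Fabp5 and Plin2) and none as lower, beside 0.709% and 0.814% of all genes tested in immune cells. Spp1, for osteopontin, stood at 85.6 CPM in Intact, 19.5 in VCD_Vehicle and 22.4 in VCD_Vehicle_NormEnv, with 85.8% of its Intact UMIs in 10 cells. Apoe, for the lipid carrier apolipoprotein E, stood at 2872 CPM against 1591 and 1907, and in the C1q gate at 14614 against 8228 and 8386. Plin2, which coats lipid droplets, was at 287 CPM against 179 and 143. Of 24 genes of tissue-resident macrophages, 2 were kept as lower and none as higher. Of the 24, 50.0% lay below both vehicle libraries (41.7% under TMM or median-of-ratios scaling), beside 38.6% of all genes tested (32.1% and 30.7%). Folr2, for a folate receptor, was at 90.6 CPM in Intact against 143 and 163.5, and Cd209f, for a C-type lectin, at 87.7 against 178 and 168. In the C1q gate, Folr2 was at 584 CPM against 959 and 1154. The C1q genes themselves were close, with C1qa at 543 CPM against 548 and 592.

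**Figure D5:**
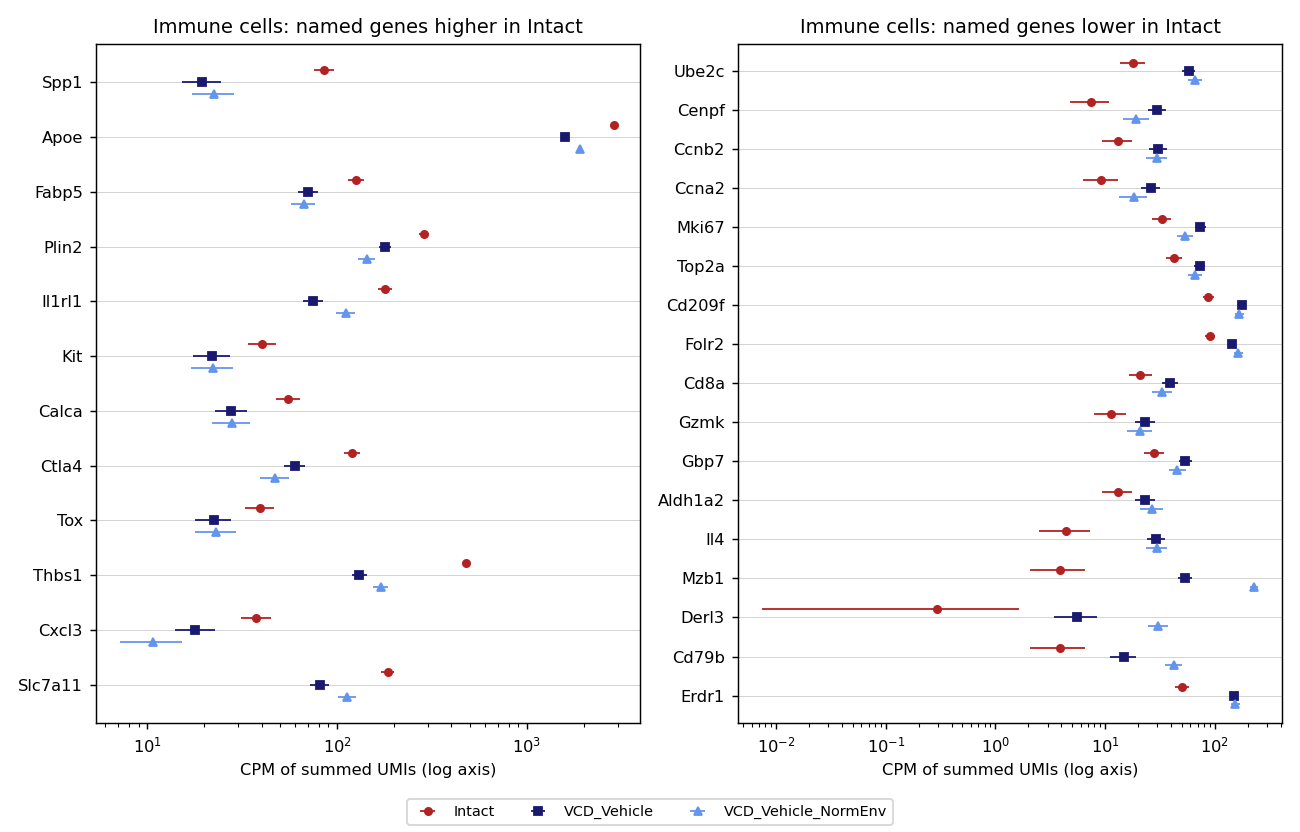
CPM of summed UMIs on a log axis in immune cells for named genes kept as higher (left) and as lower (right) in Intact, with points for the 3 libraries and bars for exact Poisson 95% intervals. Intact lies to the right of both vehicle libraries in the left panel, with Spp1 at 85.6 CPM against 19.5 and 22.4, and to the left of both in the right panel, with Ube2c at 18.1 against 58.0 and 66.3.

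Genes of other cell types moved with the immune sums. All 13 collagen chains tested in immune cells lay below both vehicle libraries in Intact, beside 38.6% of all genes tested (32.1% under TMM scaling), and 7 were kept as lower, beside 0.814%. Col1a1 was at 40.0 CPM in Intact immune cells and 3345 in Intact fibroblasts. The 10 fibroblast markers summed to 1301 CPM in Intact immune cells, 2191 in VCD_Vehicle and 2611 in VCD_Vehicle_NormEnv, with Pdgfra at 0 by the gate. Limited to immune cells with fewer than 20 collagen UMIs, 33 genes were kept as lower in place of 62. Of 7 plasma cell genes tested, 2 were kept as lower, Mzb1 and Derl3, beside 0.814% of all genes tested, and all 7 were at least 1.5-fold apart between the vehicle libraries. Jchain stood at 205 CPM in Intact, 745 in VCD_Vehicle and 7873 in VCD_Vehicle_NormEnv (not kept, since the vehicle libraries were further apart) and Mzb1 at 3.9 CPM against 53.5 and 228, from 3, 4 and 17 cells. The part of fibroblast RNA and of a few plasma cells in the counts was not tested beyond these values.

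Only 2 genes were kept in both compartments, and each had the same direction in both. Thbs1 in immune cells stood at 477 CPM in Intact, 131 in VCD_Vehicle and 169.9 in VCD_Vehicle_NormEnv. Erdr1 in immune cells stood at 50.3 CPM against 149.7 and 153.5, and was lower in all 3 immune gates compared (C1q, Cd3 and ungated). Its ratios to the vehicle libraries, 0.34 and 0.33, were those found in fibroblasts. In each of the 9 other VCD libraries Erdr1 in immune cells was above Intact.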

How the data were processed

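Raw UMI counts of each gene in each barcode were deposited by the authors, not normalized, for 27998 genes in each of 12 libraries made with 10x Chromium 3′ chemistry. Cell Ranger 3.1.0 and mm10 are named in the submitters' processing notes. Lymph nodes and dead cells had been removed at dissociation. The 3 libraries held 60181018 (Intact), 59733983 (VCD_Vehicle) and 64529446 (VCD_Vehicle_NormEnv) UMIs. Median UMIs per cell were 15875, 15080 and 16717 in fibroblasts and 7767, 6947 and 7508 in immune cells. Deposited files carry 2 codes, one shared by Intact and VCD_Vehicle and the other by VCD_Vehicle_NormEnv, and their meaning is not given in the sources used here.

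Counts were summed per library and compartment in Python 3.11.15 (scipy 1.17.1) and expressed as CPM with exact Poisson 95% intervals, and shares have exact (Clopper-Pearson) binomial intervals. Intervals, and the limit of 3 counts that a count of 0 allows, cover counting error only. No doublet caller was applied. TMM factors came from edgeR 4.0.16 in R 4.3.3. The keep rule was run on simulated Poisson counts with the same expected level in both vehicle libraries. That check cannot speak to gaps between vehicle libraries or to UMIs concentrated in a few cells. Named genes were, per compartment and direction, the 12 with the largest smaller log2 ratio among kept genes with at least 0.5 times the other compartment's mean CPM, at most 20% of UMIs in the 10 highest cells of the highest library, and no Gm, Rik, mt-, Hb or Ig name. To these were added up to 6 kept members per list, steroid receptors, gate genes and genes kept in both compartments. Some genes that the rule names are not reported here. Comparisons, members and lists were chosen with earlier results of these data known. Alternatives covered scaling, expression limits, pseudocount, fold, mitochondrial limit, cell weighting, gate mix, deep cells, thinning, cell selection and each vehicle library alone. Leaving out shared barcodes and using PBDE libraries as controls were chosen after seeing the data.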

Additional observations from a re-analysis of the deposited data

How the results depend on the processing

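Each count rests on both vehicle libraries. With 1 of them left out, and so with no gap between vehicles to exceed, genes kept as higher and lower in fibroblasts numbered 64 to 153 and 29 to 94, and in immune cells 151 to 190 and 209 to 358, of which the higher values came without VCD_Vehicle. Limits on level and size moved the counts by their construction. At a mean of at least 3 CPM fibroblasts gave 65 and 23, and at 30 CPM 10 higher (immune cells 34 and 30). A 2-fold limit left 10 and 3 in fibroblasts and 15 and 25 in immune cells. Genes lower in immune cells numbered 33 below 20 collagen UMIs, 40 with the mean CPM of single cells and 22 after thinning to 3000 UMIs, and 10 of the 62 were among those 22 (23 of the 54 higher genes were among 39). With the 2 PBDE libraries as controls, 80 and 110 genes were kept in fibroblasts and 89 and 162 in immune cells (23 of the 54 and 23 of the 62 among them). Of the immune genes, which the same Intact values had chosen, 44 of the 54 and 50 of the 62 then had the same direction against both libraries. The others lay between them, except that Il1rl1 (-0.0039), Lyz1 (-0.32), Mir155hg (-0.25), Il4 (0.92) and Kif11 (0.022) changed direction, and the cause was not tested. Gzmk changed direction only when thinned (0.0034). All 42 fibroblast and 116 immune genes kept their direction under TMM and median-of-ratios scaling, but in immune cells the split became 63 higher and 52 lower, and 65 and 51. Without shared barcodes the counts stayed within 1.5 times. Gated shares of Intact fibroblasts were 31.9% (Dpp4 and Pi16) and 11.5% (Fabp4) when thinned, leaving 56.6% ungated, and 36.9%, 18.5% and 44.6% at doubled limits, where the Cd79 gate of immune cells held 0.0%. No paired analysis was possible because each group had 1 library and no test was made. Immune sums rested on 293 to 416 cells a library, which limits what their intervals can show.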
